A study of Mus musculus with 4 samples.

Results

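The genes described here are 35 genes of glycolysis and of the response to low oxygen. They were chosen by name, with earlier results of these data known. They are 15 glycolytic enzymes, 3 transporters of glucose or lactate, 3 regulators of glycolytic flux, 6 subunits and regulators of hypoxia-inducible factor (HIF) and 8 other target genes of HIF. Probes under 33 of the names were on the array, which held 19316 genes in all, and 32 gave a signal above blank spots on all 4 arrays. The probe of Epas1, which encodes the alpha subunit of HIF-2, was not above that limit on any of the 4 arrays (51.5 with IL-26 and 50.9 with vehicle at 24 h, 50.6 and 50.8 at 6 h, where a spot without signal reads about 50) and was not tested. No probe carried the symbols Gpi1 (glucose-6-phosphate isomerase) or Eno1 (alpha-enolase), which are not analysed here.

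The cells were E0771, a mouse mammary carcinoma line, kept in medium with serum. IL-26, a member of the family of cytokines around IL-10, was added at 30 ng/ml, or control vehicle was given. RNA was taken after 24 h or 6 h, without gefitinib in any group. There was 1 array for each of the 4 groups, namely IL-26 at 24 h, vehicle at 24 h, IL-26 at 6 h and vehicle at 6 h, and nothing in the labels tells if each came from its own culture. No change of oxygen is stated in the sources used here.

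HIF is a pair of proteins, an oxygen-regulated alpha subunit and the constant partner encoded by Arnt. In the presence of oxygen, prolyl hydroxylases mark the alpha subunit, the VHL protein binds the marked form, and the proteasome destroys it. When hydroxylation slows, the stable alpha subunit enters the nucleus with its partner and binds short DNA elements near genes for glucose uptake, glycolysis, lactate export, angiogenesis and mitophagy. Tumour cells also run glycolysis at a high rate in the presence of oxygen, and MYC and growth factor signalling act on many of the same genes.

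Values are given as normalised intensity, the spot intensity after background correction with an offset of 50 and quantile normalisation, in arbitrary units. Differences are on the log2 scale of these values, and the offset makes those of dim genes too small. The median gene spot before correction read 78 to 84.4 on the 4 arrays against 49.6 to 56.5 for blank spots, and 17582 to 17744 genes lay above the limit of the blank spots, as did 32.3% to 52.1% of negative control spots. Of the 32 genes tested, 30 had a mean signal above the median gene, and none of the 34 probes behind the 33 names was saturated or lay beside a very bright spot. Among epithelial markers Krt8 was bright (1580 with IL-26 and 1730 with vehicle at 24 h, 1460 and 1710 at 6 h), while Krt18, Krt19, Krt7, Epcam and Cdh1 read between 57.1 and 72.1. The mesenchymal marker Vim read 16100 to 18500.

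The first question was how these genes differed between 24 h and 6 h after IL-26 or vehicle was added. In an additive fit of time and treatment over 18372 genes (limma, Benjamini-Hochberg adjusted p under 0.05), 23 of the 32 genes were higher at 24 h, where 14.5% of all genes tested were, 2 were lower, where 14.4% were, and 7 did not pass. The mitophagy receptor gene Bnip3 had the highest difference (1.62 ± 0.10 SE, 3.08-fold), followed by the stress-response gene Ndrg1 (1.09 ± 0.10, 2.13-fold) and Pfkl, which encodes the liver-type subunit of phosphofructokinase (1.01 ± 0.10, 2.02-fold). The lower genes were the prolyl hydroxylase gene Egln1 (-0.42 ± 0.09) and the aldolase gene Aldoc (-0.37 ± 0.07). The median difference of the 32 genes was 0.40, against 0.00 over all genes tested. As the genes were chosen with earlier results of these data known, these counts describe the set and are not an independent test of it.

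Each treatment gave the comparison with arrays of its own. At least 1.5-fold, 12 of the 32 genes were higher at 24 h with IL-26 (2.87% of all genes) and 10 in vehicle (2.6%), and at least 2-fold 3 (0.8%) and 2 (0.816%). None was lower by 1.5-fold in either treatment, where 2.24% of all genes were with IL-26 and 2% in vehicle. Both 24 h arrays lay above both 6 h arrays for 28 of the 32 genes (29.7% of all genes) and below them for 2 (32.6%). The median difference was 0.42 with IL-26 and 0.42 in vehicle. In the mean of both treatments, 11 of the 32 genes were at least 1.5-fold higher (2.59% of all genes), against 17 (7.33%) in the values of the authors, which have no offset. These calls depended on the background correction: with the local background of each spot in place of the blank spots, 0 of the 32 genes passed, as did 0 of all genes, and at an unadjusted p under 0.05 there were 3 of the 32 and 1057 of all. In that setting 25 of the 32 differences were above 0 and 9 were at least 1.5-fold (4.16% of all genes), and Bnip3 had 1.59 ± 0.27. The fit has 1 residual degree of freedom a gene and a prior worth 63.8, so its errors come mainly from other genes of like signal, and its p-values speak for these 4 arrays only.

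**Figure D1:**
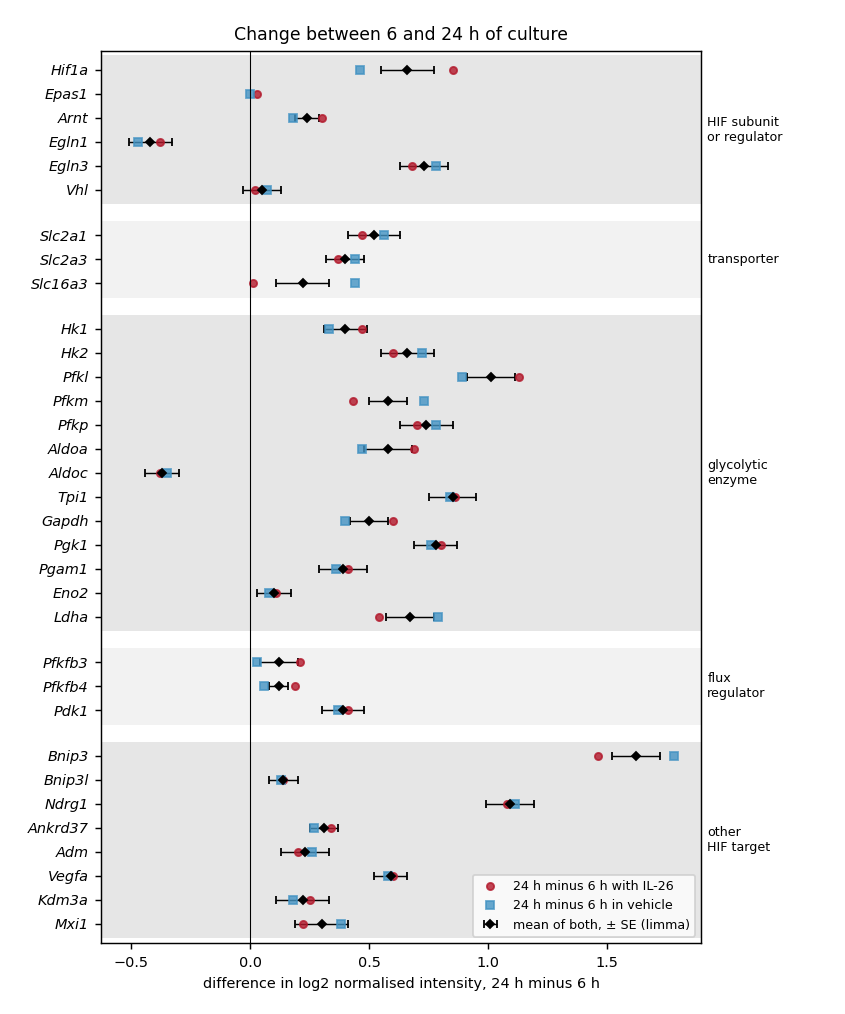
Difference in log2 normalised intensity, 24 h minus 6 h, for the 33 genes with a probe, grouped by role. Red circles are the IL-26 arrays, blue squares the vehicle arrays, and black diamonds the mean of both with its standard error from limma (none for Epas1, which was not tested). Most genes lie right of 0 in both treatments, with Bnip3 farthest at 1.62, and Egln1 and Aldoc lie left of it.

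The promoters of these genes were read for the core letters that HIF binds, ACGTG and its variant GCGTG. RefSeq windows (mouse build GRCm38.p6, 250 bases before to 50 after a start of transcription) were at hand for 31 of the 35 genes, with 48 windows in all. The motif ACGTG stood on either strand in a window of 19 of the 31 genes (61.3%), against 21.8% of 27025 mouse genes, and GCGTG in 20 (64.5%), against 35.2%. One or both stood in 27 (87.1%), against 46.7% of mouse genes. By single window the share with either motif was 75% of the 48 windows and 43.8% of 32851. The windows of these genes were also richer in G and C, at 61.2% against 53.8%, and the part of that in the motif shares was not tested. Of the 21 genes with a window that rose, 20 held either motif, as did 2 of 2 that fell and 4 of 6 that did not pass. Many of the 35 genes were chosen because they are HIF targets or belong to pathways that HIF acts on. A surplus of its motif can thus come with the choice of genes, and a link to the differences with time was not tested. A match is only a run of letters, and binding of HIF was not measured. The 160 bases before the start are given for the gene with the largest difference and for Egln1, which fell. They are also given for 4 enzymes that rose. These are Ldha (the most matches, counted on both strands), Pgk1, Pfkl and Tpi1 (the only gene with a window that rose and had no match). Capitals mark ACGTG and GCGTG, or their reverse complements CACGT and CACGC, and CACGTG holds ACGTG on both strands.
Bnip3 promoter (chr7:138909507-138909666, minus strand): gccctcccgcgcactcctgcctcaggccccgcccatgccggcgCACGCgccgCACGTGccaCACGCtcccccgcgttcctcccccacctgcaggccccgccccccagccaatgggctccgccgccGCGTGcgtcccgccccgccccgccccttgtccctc
Ldha promoter (chr7:46845644-46845803, plus strand): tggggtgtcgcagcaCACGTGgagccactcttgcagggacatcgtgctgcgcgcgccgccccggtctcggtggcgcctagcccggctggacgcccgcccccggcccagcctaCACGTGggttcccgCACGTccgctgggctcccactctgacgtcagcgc
Pgk1 promoter (chrX:106186940-106187099, plus strand): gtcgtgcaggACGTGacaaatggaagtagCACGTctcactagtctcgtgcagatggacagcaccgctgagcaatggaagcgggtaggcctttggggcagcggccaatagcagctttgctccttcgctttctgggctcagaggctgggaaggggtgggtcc
Pfkl promoter (chr10:78009808-78009967, minus strand): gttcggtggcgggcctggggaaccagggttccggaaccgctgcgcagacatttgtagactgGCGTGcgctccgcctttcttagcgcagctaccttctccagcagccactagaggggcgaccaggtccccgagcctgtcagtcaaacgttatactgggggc
Tpi1 promoter (chr6:124814159-124814318, minus strand): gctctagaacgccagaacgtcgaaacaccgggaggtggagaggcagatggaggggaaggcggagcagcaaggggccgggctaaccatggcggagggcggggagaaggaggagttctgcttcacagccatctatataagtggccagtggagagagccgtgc
Egln1 promoter (chr8:124949255-124949414, minus strand): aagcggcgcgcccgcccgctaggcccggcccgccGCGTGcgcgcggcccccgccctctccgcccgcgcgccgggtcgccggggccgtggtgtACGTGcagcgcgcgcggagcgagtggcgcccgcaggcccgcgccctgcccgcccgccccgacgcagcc

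In the stretch shown, Bnip3 had 2 matches to ACGTG (1 site read on both strands) and 3 to GCGTG. Ldha had 5 to ACGTG (3 sites, 2 of them read on both strands). Pgk1 had 2 to ACGTG on opposite strands, Pfkl 1 to GCGTG and Egln1 1 to each, and Tpi1 had 0. Of the 21 genes with a window that rose, 20 held either motif, and Tpi1 was the only exception. It was higher at 24 h by 0.85 ± 0.10 (SE) and Pgk1, with 2 matches, by 0.78 ± 0.09. The number of matches was not tested against the differences.

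Among the HIF subunits and their regulators, 3 of 5 genes tested rose (14.5% of all genes did), 1 fell (14.4%) and 1 did not pass. Hif1a, the oxygen-regulated alpha subunit of HIF-1, read 837 with IL-26 and 709 with vehicle at 24 h, against 465 with IL-26 and 515 with vehicle at 6 h. Both 24 h arrays thus lay above both 6 h arrays, as for 29.7% of all genes. The difference was 0.66 ± 0.11 (SE, limma adjusted p = 1.81e-06). This is the messenger RNA, whereas oxygen acts on the protein, which was not measured. Arnt, the constant partner, was dim and read 81.2 and 78.7 at 24 h, against 66 and 69.3 at 6 h (IL-26, then vehicle, at each time), a difference of 0.24 ± 0.05. The call for Arnt was lost without a trend of variance in the fit (adjusted p = 0.0525), and its difference was -0.02 with the local background. Epas1, as given above, stayed at the level of blank spots.

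The hydroxylases that mark HIF moved in opposite directions. Egln3 and Egln1 are both also counted among the HIF targets in a comparison below. Egln3 read 453 with IL-26 and 439 with vehicle at 24 h, against 284 with IL-26 and 255 with vehicle at 6 h. It rose by 0.73 ± 0.10 (SE, adjusted p = 8.68e-09). Egln1, the main oxygen sensor in most cells, read 217 with IL-26 and 205 with vehicle at 24 h, against 282 with IL-26 and 284 with vehicle at 6 h, and fell by 0.42 ± 0.09 (adjusted p = 0.00013). The groups did not overlap for either gene. Of all genes, 29.7% had both 24 h arrays above both 6 h arrays and 32.6% below. Vhl, which recognises the hydroxylated alpha subunit, kept within 150 to 162 on the 4 arrays (0.05 ± 0.08, adjusted p = 0.72). Of the enzymes of the same kind outside the 35 genes, the prolyl hydroxylase gene Egln2 had -0.58 ± 0.10 (adjusted p = 1.82e-06) and Hif1an, which encodes the asparagine hydroxylase of HIF, -0.21 ± 0.07 (adjusted p = 0.0177).

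Of the transporters, both glucose carriers rose. Slc2a1, which encodes the widespread carrier GLUT1, read 726 with IL-26 and 831 with vehicle at 24 h, against 524 with IL-26 and 562 with vehicle at 6 h (0.52 ± 0.11 SE, adjusted p = 1e-04). The carrier gene Slc2a3 (GLUT3) read 209 and 212 at 24 h, against 163 and 157 at 6 h (IL-26, then vehicle), with 0.40 ± 0.08. Slc16a3, which encodes the lactate exporter MCT4, did not pass. Its 24 h and 6 h arrays lay close with IL-26 (1780 at 24 h, against 1770 at 6 h) and apart in vehicle (2000 at 24 h, against 1470 at 6 h), and the mean difference was 0.22 ± 0.11 (adjusted p = 0.145). The local background reached 111% of its spot on 1 array. With that background in the correction the difference was 1.80 ± 0.79 and did not pass either.

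**Figure D2:**
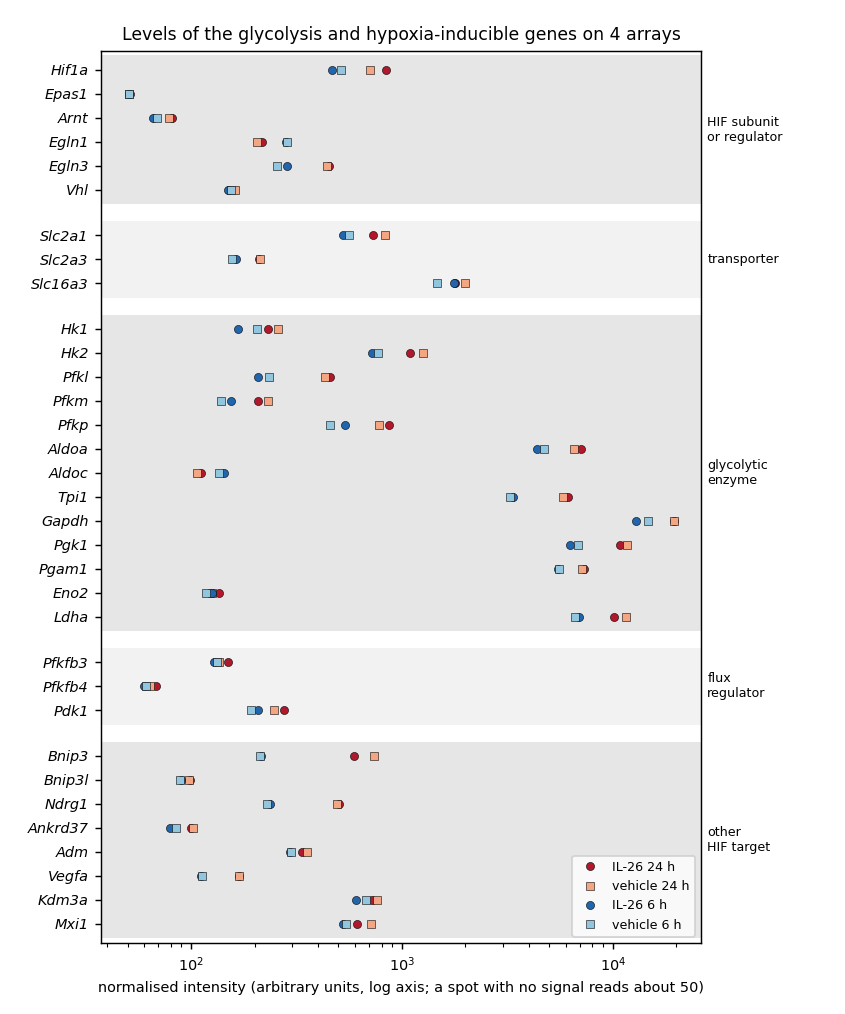
Normalised intensity (log axis, arbitrary units) of the 33 genes with a probe on each of the 4 arrays, grouped by role. Red and orange symbols are 24 h, dark and light blue are 6 h, circles IL-26 and squares vehicle. The 24 h symbols lie right of the 6 h symbols for most genes, while IL-26 and vehicle of 1 time lie close, and Epas1 sits at about 50.

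Of 13 glycolytic enzymes tested, 11 rose (14.5% of all genes did), 1 fell (14.4%) and 1 did not pass. Their median difference was 0.58. The enzymes are taken in the order of the pathway. The hexokinases, which trap glucose in the cell as its phosphate, both rose. Hk2, the inducible form, read 1090 with IL-26 and 1260 with vehicle at 24 h, against 724 with IL-26 and 768 with vehicle at 6 h (0.66 ± 0.11 SE, adjusted p = 2.2e-06). Hk1, the widespread form, read 232 and 257 at 24 h, against 167 and 205 at 6 h (0.40 ± 0.09). The 24 h arrays lay above the 6 h arrays in both, as in 29.7% of all genes.

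All 3 subunit genes of phosphofructokinase, which carries out the committed step, rose. Pfkl, the liver type, read 456 with IL-26 and 433 with vehicle at 24 h, against 208 with IL-26 and 233 with vehicle at 6 h (adjusted p = 1.22e-13). Pfkp, the platelet type, read 872 with IL-26 and 777 with vehicle at 24 h, against 538 with IL-26 and 454 with vehicle at 6 h (0.74 ± 0.11 SE), and Pfkm, the muscle type, 207 and 232 at 24 h, against 154 and 139 at 6 h (0.58 ± 0.08). At 24 h each of these 3 genes lay above its 6 h values, as did 29.7% of all genes. With the local background, which on 1 array reached 91.3% of the spot of Pfkp, that gene had -0.48 in place of 0.74.

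The aldolases, which split the phosphorylated sugar, moved apart. Aldoa, the ubiquitous and muscle form, read 7070 with IL-26 and 6530 with vehicle at 24 h, against 4380 with IL-26 and 4710 with vehicle at 6 h (0.58 ± 0.10 SE, adjusted p = 4.53e-06). Aldoc, the brain form, read 111 with IL-26 and 107 with vehicle at 24 h, against 144 with IL-26 and 136 with vehicle at 6 h (adjusted p = 2.74e-05). In E0771 cells the spot of Aldoc was dim. Without any offset, in the intensity table of the authors, its difference was -0.58.

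Below the split, most of the spots were bright. Tpi1, which interconverts the triose phosphates, read 6140 with IL-26 and 5800 with vehicle at 24 h, against 3370 with IL-26 and 3250 with vehicle at 6 h (adjusted p = 5.52e-10). Gapdh, which oxidises the triose and is often taken as a reference gene, read 19500 with IL-26 and 19400 with vehicle at 24 h, against 12900 with IL-26 and 14700 with vehicle at 6 h (0.50 ± 0.08 SE, adjusted p = 1.81e-06). Pgk1, the kinase of the first ATP-yielding step, read 10800 with IL-26 and 11600 with vehicle at 24 h, against 6240 with IL-26 and 6860 with vehicle at 6 h (adjusted p = 4.18e-10). For each of these 3 genes, the lower 24 h array lay above the higher 6 h array, as for 29.7% of all genes. The mutase gene Pgam1 had a smaller difference (7300 and 7130 at 24 h, against 5480 and 5550 at 6 h, 0.39 ± 0.10). Eno2, the neuronal enolase, was dim and did not pass (136 and 125 at 24 h, against 126 and 118 at 6 h, 0.10 ± 0.07, adjusted p = 0.356).

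Ldha, which reduces pyruvate to lactate, read 10100 with IL-26 and 11500 with vehicle at 24 h, against 6940 with IL-26 and 6610 with vehicle at 6 h. Its difference was 0.67 ± 0.10 (SE, adjusted p = 4.45e-08), with 0.54 for the IL-26 arrays and 0.79 for the vehicle arrays. Local background readings were high around several of the brightest of these spots, up to 108% of the spot itself for Pgk1, 107% for Aldoa and 105% for Gapdh on 1 array each. With the local background in the correction, Pgk1 had -3.59 in place of 0.78, Aldoa 3.27 and Gapdh 3.67, none of which passed.

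Of the flux regulators, Pdk1 and Pfkfb4 rose and Pfkfb3 did not pass. Pdk1, the kinase that shuts pyruvate dehydrogenase and so keeps pyruvate out of mitochondria, read 276 with IL-26 and 248 with vehicle at 24 h, against 208 with IL-26 and 192 with vehicle at 6 h (0.39 ± 0.09 SE, adjusted p = 0.000396). It alone of the 33 genes had 2 probes, with differences of 0.41 and 0.36, and the gene ID that the platform gives for the second is not in the mouse table. Pfkfb3 and Pfkfb4 encode enzymes that set the amount of the bisphosphate activator of phosphofructokinase. Pfkfb3 read 149 and 136 at 24 h, against 129 and 133 at 6 h (0.12 ± 0.08, adjusted p = 0.263). Pfkfb4 was close to the level of blank spots (68.4 and 64 at 24 h, against 60.1 and 61.4 at 6 h). Its difference of 0.12 ± 0.04 (adjusted p = 0.00667) was lost when the fit took no trend of variance with intensity (adjusted p = 0.209).

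Of 8 other HIF targets, 5 rose (14.5% of all genes did), 0 fell (14.4%) and 3 did not pass, with a median difference of 0.30. The first of them, Bnip3, encodes a mitochondrial protein that recruits the autophagy machinery. It read 590 with IL-26 and 733 with vehicle at 24 h, against 215 with IL-26 and 213 with vehicle at 6 h, a separation well beyond the gap between treatments (adjusted p = 9.63e-22). Its relative Bnip3l, which serves mitophagy as well, had 99.3 and 97.8 at 24 h, against 89.8 and 89.1 at 6 h, and did not pass (0.14 ± 0.06 SE, adjusted p = 0.0697). Ndrg1, a gene induced by hypoxia and metal chelation, read 501 with IL-26 and 491 with vehicle at 24 h, against 237 with IL-26 and 228 with vehicle at 6 h (adjusted p = 7.79e-15).

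Vegfa, the main angiogenic growth factor among HIF targets, read 169 with IL-26 and 169 with vehicle at 24 h, against 112 with IL-26 and 113 with vehicle at 6 h (0.59 ± 0.07 SE, adjusted p = 1.46e-09). Ankrd37, an ankyrin repeat gene, read 99.9 and 102 at 24 h, against 79.1 and 84.7 at 6 h (0.31 ± 0.06), and Mxi1, an antagonist of MYC, 613 and 710 at 24 h, against 526 and 544 at 6 h (0.30 ± 0.11, adjusted p = 0.026). In each the 24 h arrays lay above the 6 h arrays, as in 29.7% of all genes. Adm, which encodes the vasodilator peptide adrenomedullin, had 0.23 ± 0.10 (adjusted p = 0.0647), with 336 and 356 at 24 h, against 294 and 297 at 6 h. Kdm3a, a histone H3 demethylase gene, had 0.22 ± 0.11 (adjusted p = 0.131), with 722 and 765 at 24 h, against 605 and 673 at 6 h. Both did not pass, although their 24 h arrays too lay above their 6 h arrays (29.7% of all genes).

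The enzymes were then set against the other HIF targets. Of the enzymes 11 of 13 rose and of the targets 5 of 8, where 14.5% of all genes did. With medians of 0.58 against 0.30, the enzymes had the higher values as a group. This held in the IL-26 arrays (0.60 against 0.29) and in the vehicle arrays (0.72 against 0.33). The range within each group was wider than the gap between them, from -0.37 for Aldoc to 1.01 for Pfkl among enzymes and from 0.14 for Bnip3l to 1.62 for Bnip3 among the targets. No test was made, as genes are not replicates of a condition. The enzyme spots were brighter, with a median mean log2 signal of 9.87 against 8.36, and the offset lowers the differences of dim spots most. The part of the offset in the gap was not tested. The gap between the medians was 0.28 as reported, 0.27 with an offset of 16 and 0.34 with an offset of 100. In the authors' values, which also differ in scaling, the medians were 0.61 for enzymes and 0.53 for the targets. There Vegfa had 0.98 and Ankrd37 0.66. With Egln1 and Egln3 counted among the targets the median stayed at 0.30.

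**Figure D3:**
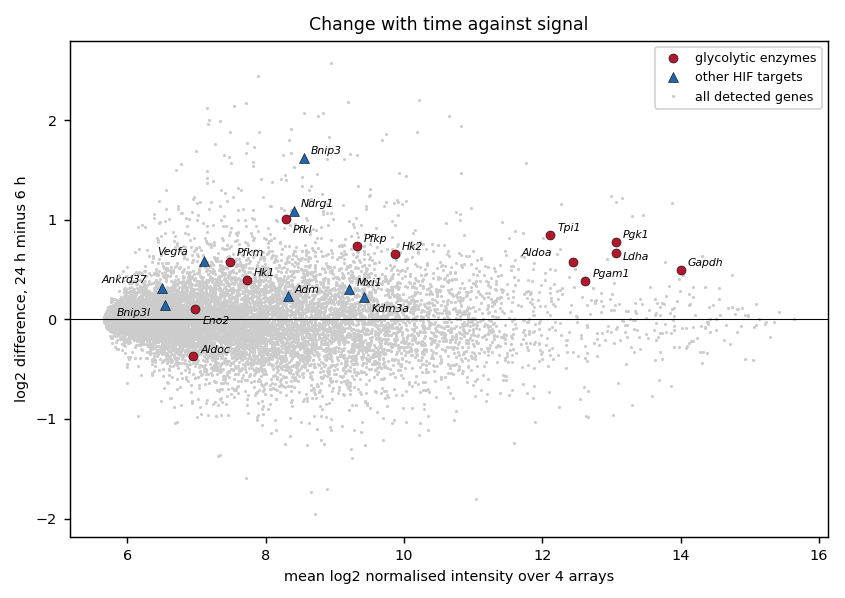
Difference with time (24 h minus 6 h, log2, mean of both treatments) against mean log2 normalised intensity for glycolytic enzymes (red circles), other HIF targets (blue triangles) and all detected genes (grey). Enzymes lie between Aldoc at 6.95 and Gapdh at 14.00, all above the median gene at 6.47, and the HIF targets between Ankrd37 at 6.51 and Kdm3a at 9.43.

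**Figure D4:**
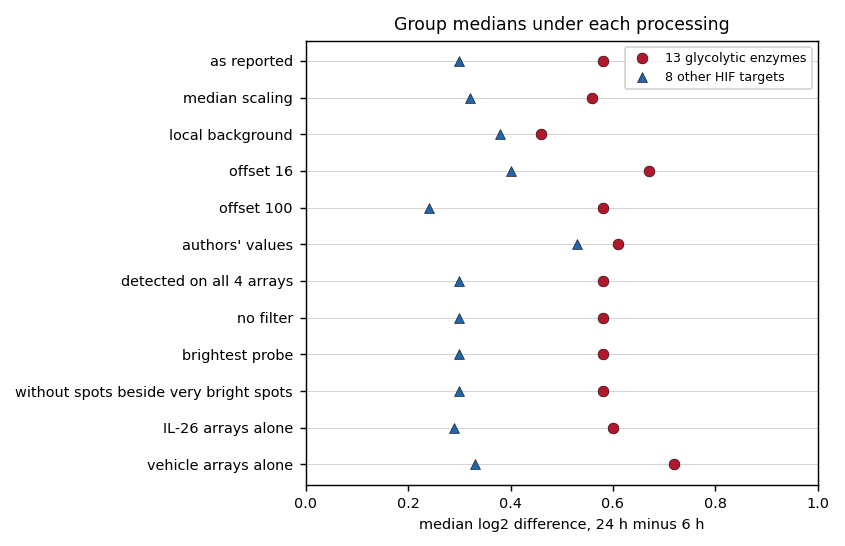
Median difference with time (24 h minus 6 h, log2) of the 13 enzymes and the 8 other HIF targets under each way of processing the arrays, and in the IL-26 and the vehicle arrays taken alone. Enzymes lie right of the targets in every row, by 0.28 as reported and by 0.08 both with local background and in the authors' values.

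Medians nearer 0 were found for other genes of the same pathways. Of 26 further genes of glycolysis and pyruvate use tested, 4 rose (15.4%, near the 14.5% of all genes), 4 fell and 18 did not pass, with a median difference of 0.02. The spots of that list were dimmer, with a median mean log2 signal of 6.38 against 8.36 for the 32 genes. The offset draws dim genes towards 0, and its part in the median of this list was not tested. Pkm, which encodes pyruvate kinase and is the one gene of that list in the main line of glycolysis with a bright spot, read 3000 with IL-26 and 2880 with vehicle at 24 h, against 1330 with IL-26 and 1390 with vehicle at 6 h (1.11 ± 0.11 SE, adjusted p = 5.81e-13). Next were the mitochondrial carboxykinase gene Pck2 (0.84 ± 0.11) and the phosphoglucomutase gene Pgm1 (0.33 ± 0.11). The lowest were Bpgm, a mutase best known from red cells (-0.47 ± 0.09), Tigar, a phosphatase that lowers glycolytic flux (-0.26 ± 0.08), and the hexokinase-like gene Hkdc1 (-0.14 ± 0.04).

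Of 39 further hypoxia genes tested, 16 rose (41% against 14.5% of all genes), 5 fell and 18 did not pass, with a median of 0.07 and a median log2 signal of 7.13. Highest was Ddit4, an inhibitor of mTOR signalling (593 with IL-26 and 622 with vehicle at 24 h, against 190 with IL-26 and 160 with vehicle at 6 h, 1.80 ± 0.10 SE). It was followed by the oxidase gene of the endoplasmic reticulum Ero1a (0.90 ± 0.10) and the transferrin receptor gene Tfrc (0.82 ± 0.11). Lowest were the heme oxygenase gene Hmox1 (677 with IL-26 and 930 with vehicle at 24 h, against 1620 with IL-26 and 1940 with vehicle at 6 h, -1.16 ± 0.11), Egln2 and the glycogen branching enzyme gene Gbe1 (-0.57 ± 0.11). Several of these respond to stimuli other than oxygen as well.

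Markers of other cell types were read beside the differences with time, where 14.5% of all genes rose and 14.4% fell. Of 4 adipocyte markers 3 were tested and 2 rose, with Fabp4 at 316 with IL-26 and 312 with vehicle at 24 h, against 127 with IL-26 and 128 with vehicle at 6 h, and Cidec at 104 and 104 at 24 h, against 87.8 and 84.6 at 6 h. Adipoq was above the limit on 0 of 4 arrays. The 3 tested adipocyte markers summed to 486 and 481 at 24 h, against 279 and 275 at 6 h. Of 4 leukocyte markers tested 1 fell, Lyz2 (128 and 124 at 24 h, against 184 and 176 at 6 h), with sums of 287 and 281, against 345 and 340, while Ptprc stayed between 54.4 and 56 and Itgam was above the limit on 0 of 4 arrays. Sparc of 5 mesenchymal markers fell by 1.22 ± 0.11 (SE), with 536 with IL-26 and 554 with vehicle at 24 h, against 1170 and 1370 at 6 h. Kdr of 4 endothelial markers also fell (-0.19 ± 0.05). Krt7 of 6 epithelial markers, a dim spot, rose by 0.10 ± 0.04 (adjusted p = 0.0413). The part of any of these in the differences of the glycolysis and hypoxia genes was not tested.

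The second question was whether IL-26 altered these genes. Averaged over both times, 0 of the 32 genes passed (limma, where 0.169% of all genes were called higher and 0.321% lower), and 1 had an unadjusted p under 0.05, as did 876 of all genes. That gene was Hk1, which read 232 with IL-26 against 257 with vehicle at 24 h, and 167 with IL-26 against 205 with vehicle at 6 h, a mean difference of -0.22 ± 0.09 (SE, adjusted p = 0.701). At each time the IL-26 array of Hk1 lay below its vehicle array, but the threshold was missed. The highest mean difference was that of Pfkp (0.17 at 24 h and 0.25 at 6 h, mean 0.21 ± 0.11, adjusted p = 0.999). Both IL-26 arrays lay above both vehicle arrays for 1 gene, Eno2 (9.42% of all genes), and below them for 1, Vhl (8.3%).

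With 1 array a group, the differences at each time have no test. With the blank spots as background, no gene of the 32 reached 1.5-fold at 24 h, where 0.0109% of all genes were higher and 0.0381% lower. The same held at 6 h, where 0.0544% were higher and 0.0272% lower. At 1.2-fold, Bnip3 was lower at 24 h (-0.31, where 2.01% of all genes were lower), Slc16a3 was higher at 6 h (0.27, where 1.24% were higher) and Hk1 was lower at 6 h (-0.29, where 0.806% were lower). The sign was the same at both times for 17 of the 32 genes, 8 higher with IL-26 (25.3% of all genes) and 9 lower (21.8%). Hif1a had 0.24 at 24 h and -0.15 at 6 h, and Slc16a3 -0.17 at 24 h and 0.27 at 6 h. The enzymes had a median of 0.04 at 24 h and -0.02 at 6 h, and the other HIF targets -0.06 and -0.01. Without regard to sign, the median difference of the 32 genes with IL-26 was 0.10 at 24 h and 0.08 at 6 h, against 0.07 and 0.07 for the genes brighter than the median gene, and their median difference with time was 0.42 with IL-26 and 0.44 in vehicle. Differences of this size between 2 arrays could not be told from the variation of single arrays, which was not measured.

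**Figure D5:**
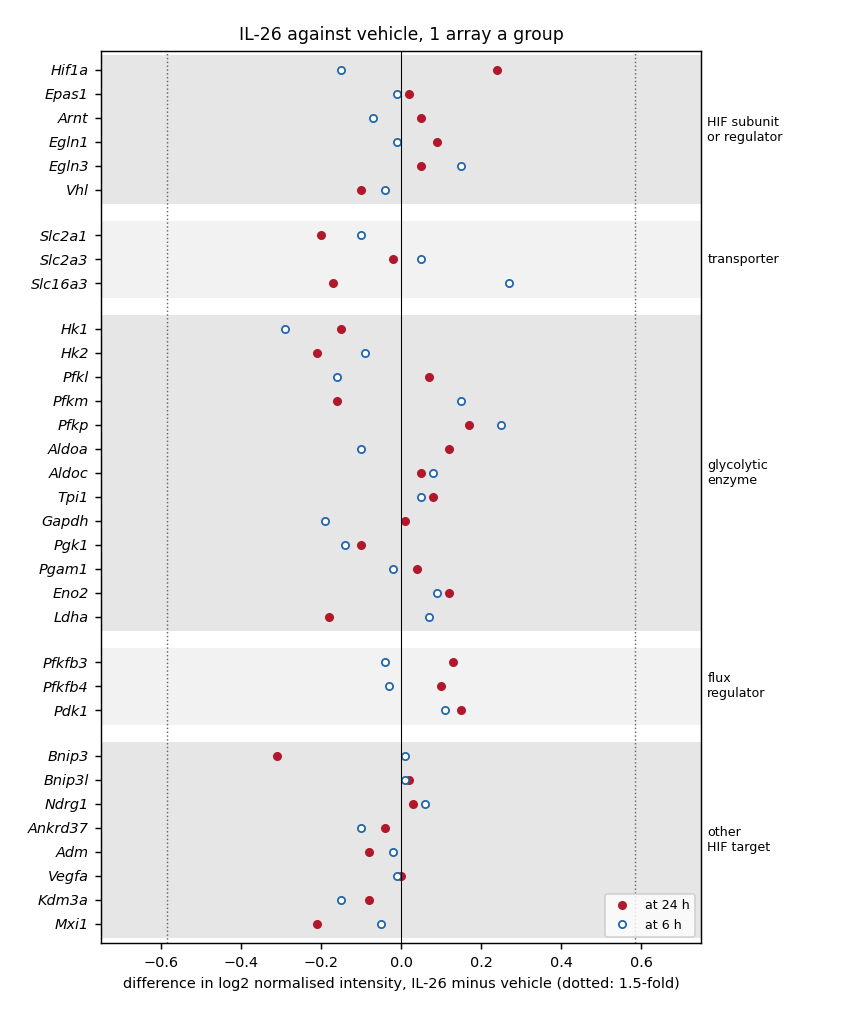
Difference in log2 normalised intensity, IL-26 minus vehicle, at 24 h (filled red) and 6 h (open blue) for the 33 genes with a probe, 1 array a group. All points lie inside the dotted lines at 1.5-fold, the farthest being Bnip3 at -0.31 at 24 h and Hk1 at -0.29 at 6 h.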

How the data were processed

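Total RNA of E0771 cells was amplified, labelled with Cy5 and hybridised to 1-colour TORAY 3D-Gene mouse chips. The authors deposited, per the file headers, the median intensity at the red scan wavelength and the local background of each of 27456 spots without normalisation, and a table of intensity values of their own. Those equalled a slope times the spot intensity minus the blank mean to within 1% for bright spots (a check made here), scaled to a median of 25. Scale and subtraction are not given in the sources used here.

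Spot intensities were corrected with normexp from blank spots (offset 50), log2 transformed and quantile normalised with limma 3.58.1 (R 4.3.3). Probes were averaged by gene. A gene counted as detected if it exceeded the blank spots by 2 SD of these on at least 1 array. Time and treatment were fitted additively (eBayes with trend), with adjustment over all 18372 genes, after tests on simulated data. The 35 genes, all of which are named, and the lists were chosen with earlier results of these data known. Of each further list the 3 highest and 3 lowest differences with time are named, and markers where they moved. Probe sequences were not used, so hybridisation of close copies such as pseudogenes was not checked. Promoters came from RefSeq (GRCm38.p6). Alternatives covered background, offset, scaling, filters, probes, spots near bright spots and the variance trend.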

Additional observations from a re-analysis of the deposited data

How the results depend on the processing

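No paired analysis was possible because the labels carry no replicate numbers and each group has 1 array, and without any 1 array the fit has no residual degree of freedom. With local background in place of blank spots 0 of the 32 genes rose and 0 fell at 24 h, the medians were 0.46 for enzymes and 0.38 for other HIF targets, and the differences of Arnt (-0.02), Vhl (-0.35), Pfkp (-0.48), Pgk1 (-3.59) and Bnip3l (-0.09) turned sign, and the cause was not tested. The medians of enzymes and other targets were 0.67 and 0.40 with an offset of 16 and 0.72 and 0.33 in the vehicle arrays alone. Other targets had 0.24 with an offset of 100 and 0.53 in the authors' values, which carry none. In those values 17 of the 32 genes (7.33% of all genes) were at least 1.5-fold higher at 24 h in the mean of both treatments, against 11 (2.59%) as reported. Apart from local background, every alternative gave 23 to 25 genes that rose and 2 that fell. Median scaling added Bnip3l (adjusted p = 0.0452) and Adm (0.0289), and the authors' values Adm and Kdm3a. Without the variance trend Arnt (0.0525) and Pfkfb4 (0.209) were lost, and Adm and Kdm3a passed. Over all genes, median scaling gave 3865 higher and 2443 lower at 24 h (61.3% higher), against 2660 and 2639 (50.2%). Calls for IL-26 over all genes ran from 0 without the trend to 265 with local background, against 90. They included 0 of the 32 genes in each setting. At an unadjusted p under 0.05 there were 1 to 6 of the 32 (6 without the trend). As reported it was 1, beside 876 of all genes. For the other settings the number of all genes at that p was not counted, so no share can be given. Depth cannot be read from intensities, and the number of arrays limits the precision.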
